A study of Homo sapiens with 4 samples.

Results

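Peaks of CTCF and of histone H3 acetylated at lysine 27 (H3K27ac) were examined around 9 genes for epithelial and prostate lineage transcription factors: FOXA1, GATA2, GATA3, GRHL2, KLF5, ELF3, EHF, SOX9 and TP63. The peaks were taken by position, around genes that were chosen with earlier results of these data known. Each gene had an hg19 interval rounded to 1 kb, the interval was widened by 50 kb on each side, and every peak sharing a base with the resulting window was taken. This gave 30 of 50364 H3K27ac peaks and 21 of 36152 CTCF peaks. Both lists come from DU145, a prostate cancer line established from a brain metastasis, with 1 library for CTCF and 1 for H3K27ac. Input chromatin of DU145 and of LNCaP, another prostate cancer line, makes up the other libraries of the series; which of them served as background for the peaks was not given in the sources used here. With 1 library per mark no value has a replicate error and no test was made, so intervals below cover counting error only.

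CTCF is a zinc finger protein that binds insulators and the anchors of chromatin loops, and H3K27ac marks nucleosomes of active promoters and enhancers. Lineage transcription factors keep a cell type's genes active, and their own genes often lie in broad acetylated regions in the cells that use them. In the prostate, FOXA1 opens chromatin for the androgen receptor in luminal cells, the secretory layer of the gland. TP63 marks the basal layer, and the ETS factors ELF3 and EHF are restricted to epithelia. Expression was not measured in the lists used here, so a peak or its absence says nothing direct about RNA or protein.

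The acetylation around these genes ranged from a peak among the widest of the whole list, at FOXA1, to no peak at all, at GATA3 and GRHL2. An H3K27ac peak touched the unwidened interval of 6 of 9 genes (FOXA1, GATA2, KLF5, ELF3, EHF and SOX9). At TP63 all H3K27ac peaks of the window lay beyond the far end of the gene. As background, 15.5% of all stretches of the median interval length, laid end to end along the chromosomes as tiles, held H3K27ac peak bases. Such tiles include deserts without genes, so they are a description of the genome and not of other genes. CTCF peaks were present in all 9 windows. Tiles of the window lengths had a median of 1 to 3 CTCF summits, so this is ordinary. The windows had 14.4 CTCF peaks per Mb, against 11.9 for the list, and the share of tiles with a CTCF peak was not computed.

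The RefSeq sequences upstream of transcription starts show how the promoters of these genes differ. The table used holds 15 starts for 7 of the 9 genes, and none for GRHL2 and SOX9. It uses another build, GRCh38.p14, than the peaks, so no position was carried from one to the other. Each line gives the 250 bases before a start, 5′ to 3′ on the gene's strand, with GC boxes (GGGCGG, either strand) and TATA boxes (TATAAA, either strand) in capitals. Matches of the 2 motifs did not overlap. FOXA1 is shown as the gene with the broadest acetylation and the fourth GATA3 start as the most CpG-rich of the 6 starts of a gene without it. The KLF5 starts are shown because they differ in CpG content, and ELF3 as a gene with a TATA box and an H3K27ac peak at the start end.
FOXA1 start 1 (minus strand, chr14:37595250-37595499): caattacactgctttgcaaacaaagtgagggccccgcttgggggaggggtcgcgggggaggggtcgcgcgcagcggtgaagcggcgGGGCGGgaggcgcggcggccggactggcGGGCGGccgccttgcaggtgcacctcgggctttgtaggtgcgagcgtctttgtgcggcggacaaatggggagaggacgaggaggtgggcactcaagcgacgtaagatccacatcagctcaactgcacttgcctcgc
GATA3 start 4 (plus strand, chr10:8053391-8053640): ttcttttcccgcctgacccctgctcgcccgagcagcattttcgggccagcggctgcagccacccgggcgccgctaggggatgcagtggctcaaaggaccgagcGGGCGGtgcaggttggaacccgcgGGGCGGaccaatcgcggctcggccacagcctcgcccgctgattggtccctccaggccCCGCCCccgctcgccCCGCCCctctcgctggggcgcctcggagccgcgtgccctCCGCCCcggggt
KLF5 start 1 (plus strand, chr13:73054726-73054975): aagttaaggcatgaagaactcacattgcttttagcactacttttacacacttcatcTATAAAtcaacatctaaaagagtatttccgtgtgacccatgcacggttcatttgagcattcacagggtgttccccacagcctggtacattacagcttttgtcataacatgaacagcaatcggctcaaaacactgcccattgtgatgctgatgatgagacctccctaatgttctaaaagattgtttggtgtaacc
KLF5 start 2 (plus strand, chr13:73058755-73059004): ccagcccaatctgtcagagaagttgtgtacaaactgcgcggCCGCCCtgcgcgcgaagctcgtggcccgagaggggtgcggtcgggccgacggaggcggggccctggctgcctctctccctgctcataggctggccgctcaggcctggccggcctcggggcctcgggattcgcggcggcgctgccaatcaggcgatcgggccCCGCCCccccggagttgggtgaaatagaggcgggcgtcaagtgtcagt
ELF3 start 1 (plus strand, chr1:202010337-202010586): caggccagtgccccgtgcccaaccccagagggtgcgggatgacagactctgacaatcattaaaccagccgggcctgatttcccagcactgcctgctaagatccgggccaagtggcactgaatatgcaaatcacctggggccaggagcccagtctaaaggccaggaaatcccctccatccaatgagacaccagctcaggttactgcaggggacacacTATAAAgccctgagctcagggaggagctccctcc

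A GC box occurred in 42.6% and a TATA box in 10.7% of the 35116 upstream sequences of the table, and in 7 and 3 of the 15 member promoters. The FOXA1 sequence held 2 GC boxes and 26 CpG, and the GATA3 sequence 5 GC boxes and 30 CpG, against a median of 11 CpG over all promoters. The 6 GATA3 starts ranged from 4 to 30 CpG, and the first and last held no GC box. The KLF5 starts lay 4.03 kb apart. The first had a GC content of 40.8%, 3 CpG and a TATA box whose first base was 194 bases before the start, and the second 70.8% and 27 CpG. The ELF3 sequence had 1 TATA box, whose first base was 34 bases before the start. The short CTCF core CCCTC was found in 13 of the 15 member promoters and in 66.6% of all. All 6 GATA3 starts are among the 13, and starts of a gene are not independent members. A longer CTCF pattern, CCANNAG followed by GGGGC after 0 to 2 bases, was found in none of the 15 and in 0.709% of all.

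**Figure D1:**
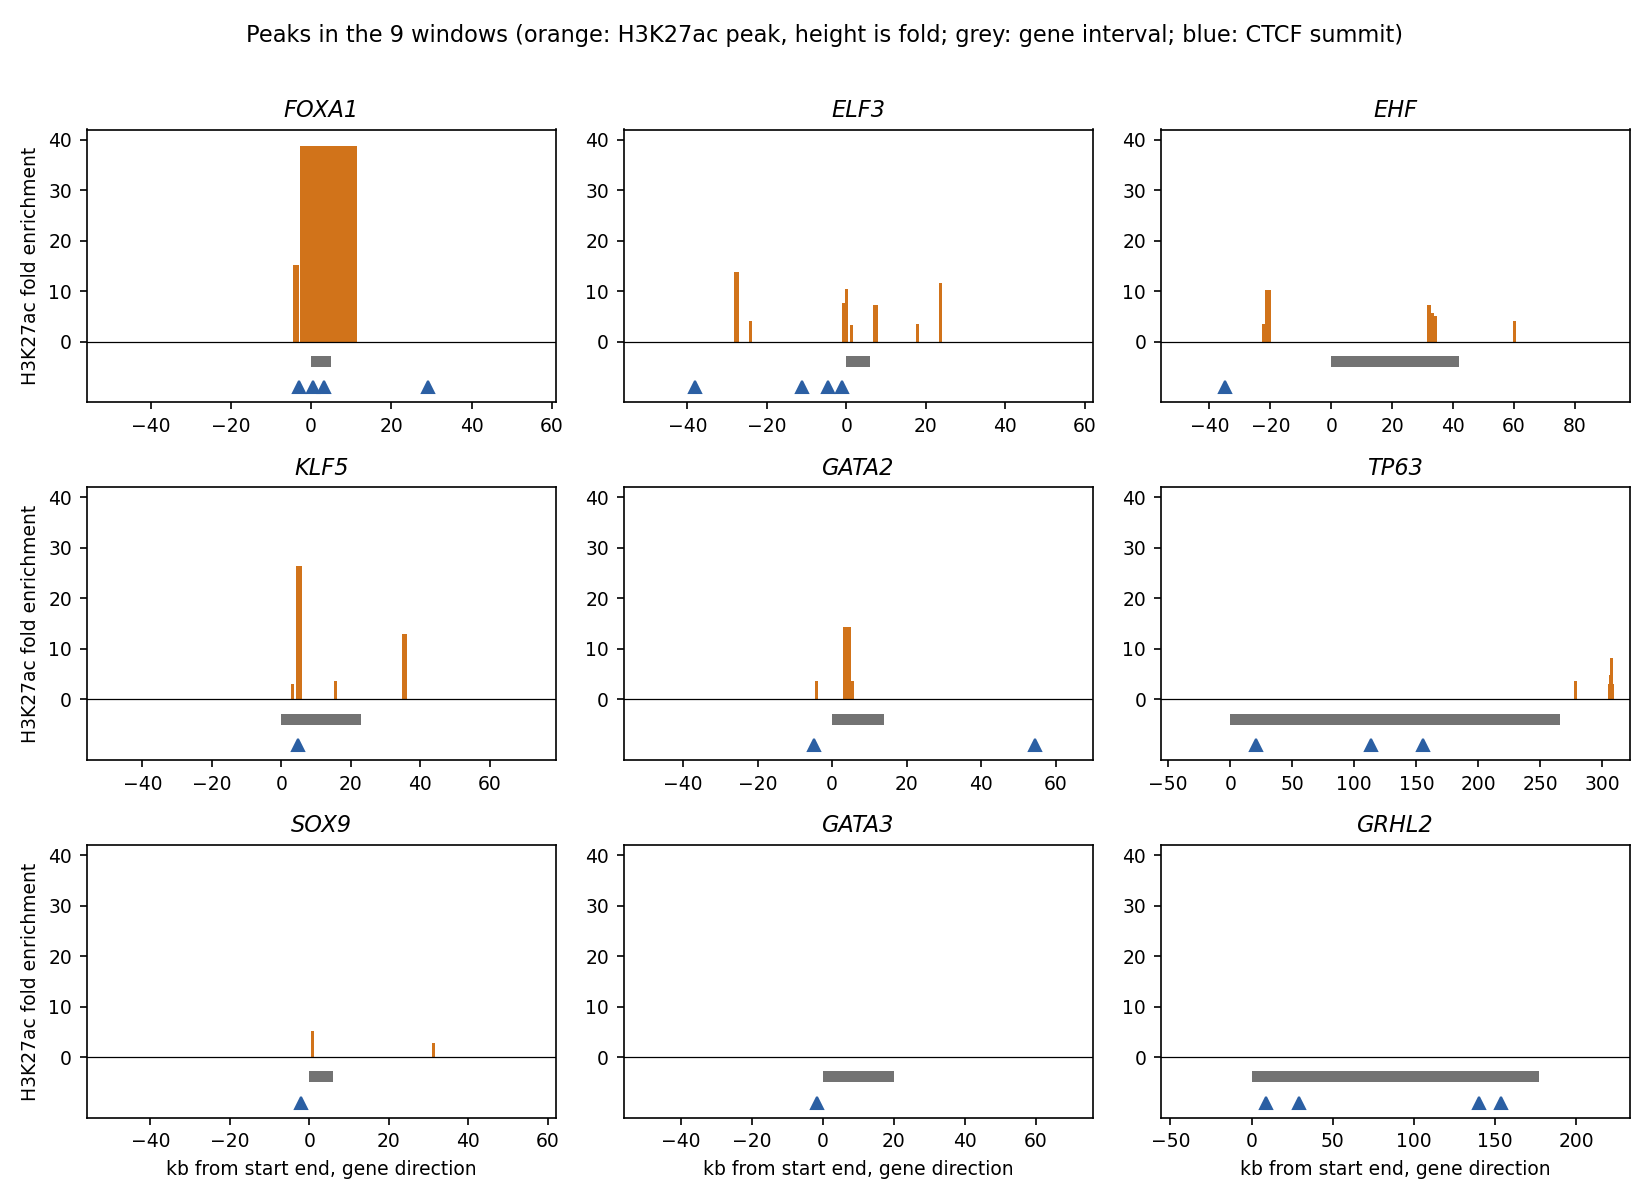
Peaks in the window of each gene. The x axis is the distance in kb from the end of the interval where transcription starts, in the direction of the gene. Orange bars are H3K27ac peaks, with the deposited fold enrichment as height and, for narrow peaks, a minimum drawn width. Grey bars are gene intervals and blue triangles are CTCF summits. FOXA1 has the tallest and widest bar, at 38.6-fold, and the GATA3 and GRHL2 panels hold CTCF summits only.

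Fold enrichment here is the authors' ratio of fragments at a peak's summit to the local background, comparable only within a list. The H3K27ac peaks of the windows had folds from 2.77 to 38.6 with a median of 5.15, against a median of 4.55 over the list. Their widths ranged from 288 to 14227 bases with a median of 671 bases, against 566 bases. A width of 1 kb or more was reached by 9 of 30 (30.0%, against 25.6% of the list). Of the 30, 14 had a −log10 q of at least 10 (46.7%, against 43.4% of the list). By these measures the H3K27ac peaks of the windows were close to the list as a whole. The CTCF peaks were weaker than the list: their folds ran from 4.05 to 22.1 with a median of 8.21 against 9.52, and 12 of 21 (57.1%, against 79.8% of the list) reached the same −log10 q.

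H3K27ac peaks covered 38.0 kb of the 1.46 Mb of windows. This was 2.61% of window bases, against 1.42% of the assembled chromosomes between their first and last peaks. FOXA1 alone held 41.3% of it, and without the FOXA1 window the share was 1.65%. In peaks per Mb the windows had 20.6 with FOXA1 and 20.7 without it, against 16.5 for the list.

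**Figure D2:**
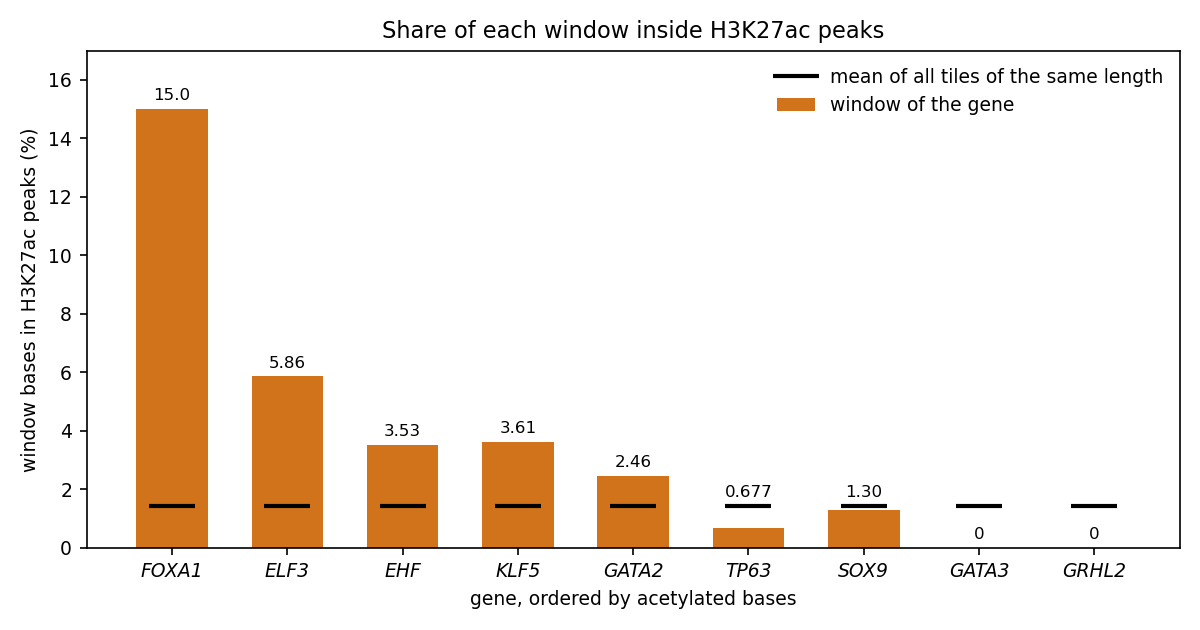
Percent of the bases of each window that lie in H3K27ac peaks (orange bars), in order of acetylated bases, with the mean over all tiles of the same length (black lines). FOXA1 stands at 15.0%, and TP63, SOX9, GATA3 and GRHL2 lie below the tile mean of 1.42%. TP63, at 0.677%, and SOX9, at 1.3%, still lie above their tile medians of 0.33% and 0%, which are not drawn.

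The forkhead pioneer factor FOXA1 (interval chromosome 14, 38059000 to 38064000, minus strand) had the broadest acetylation of the 9 genes. A single H3K27ac peak at 38052560 to 38066786, 14227 bases wide, spanned the whole interval. It reached 2.79 kb upstream of the start and 6.44 kb past the far end. By width it ranked 4 of 50364 H3K27ac peaks, and by fold (38.6, −log10 q 259.5) it ranked 434. Its summit held 209 fragments (95% interval 182 to 239, exact Poisson) over a background of 4.44. The summit did not lie at the start but 1.73 kb past the far end of the gene.

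Another H3K27ac peak followed upstream at 38067068 to 38068565, with a fold of 15.1 from 73 fragments (57.2 to 91.8). Together the peaks covered 15.7 kb, 15.0% of the window. Of 28646 tiles of the same length, 1.46% held as many acetylated bases. When neighbouring H3K27ac peaks of the list were joined, these formed a domain of 16.0 kb whose score, the sum of fold times width in kb, ranked 37 of 18213. It was among the domains past the point where the ranked scores reach a slope of 1 (4.30% of all domains), and no other gene of the 9 was touched by such a domain. In RefSeq order FOXA1 neighbours MIPOL1 and TTC6, so acetylation here need not belong to FOXA1 alone.

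FOXA1 was also the gene with most contact between the marks. Its window had 4 CTCF peaks, and 3 of them overlapped H3K27ac. The strongest, at 38063433 to 38064019, lay at the start end of the interval inside the broad acetylated peak. It had a fold of 16.2 from 88 fragments (70.6 to 108) and a width of 587 bases, exceeded or equalled by 3.84% of the CTCF list. A weaker CTCF peak in the gene body, at 38060729 to 38061167, had a fold of 7.67 from 41 fragments (29.4 to 55.6). The next, at 38066815 to 38067118, had a fold of 8.21 from 71 fragments. It straddled the break of 281 bases between the H3K27ac peaks, with its summit in the break and 51 bases shared with acetylation. The last, 29.0 kb downstream, had a fold of 4.86 and lay apart from acetylation. Of 9 breaks of 500 bases or less between H3K27ac peaks in the windows, this was the 1 that held a CTCF summit, against 4.52% of all 13374 such breaks.

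**Figure D3:**
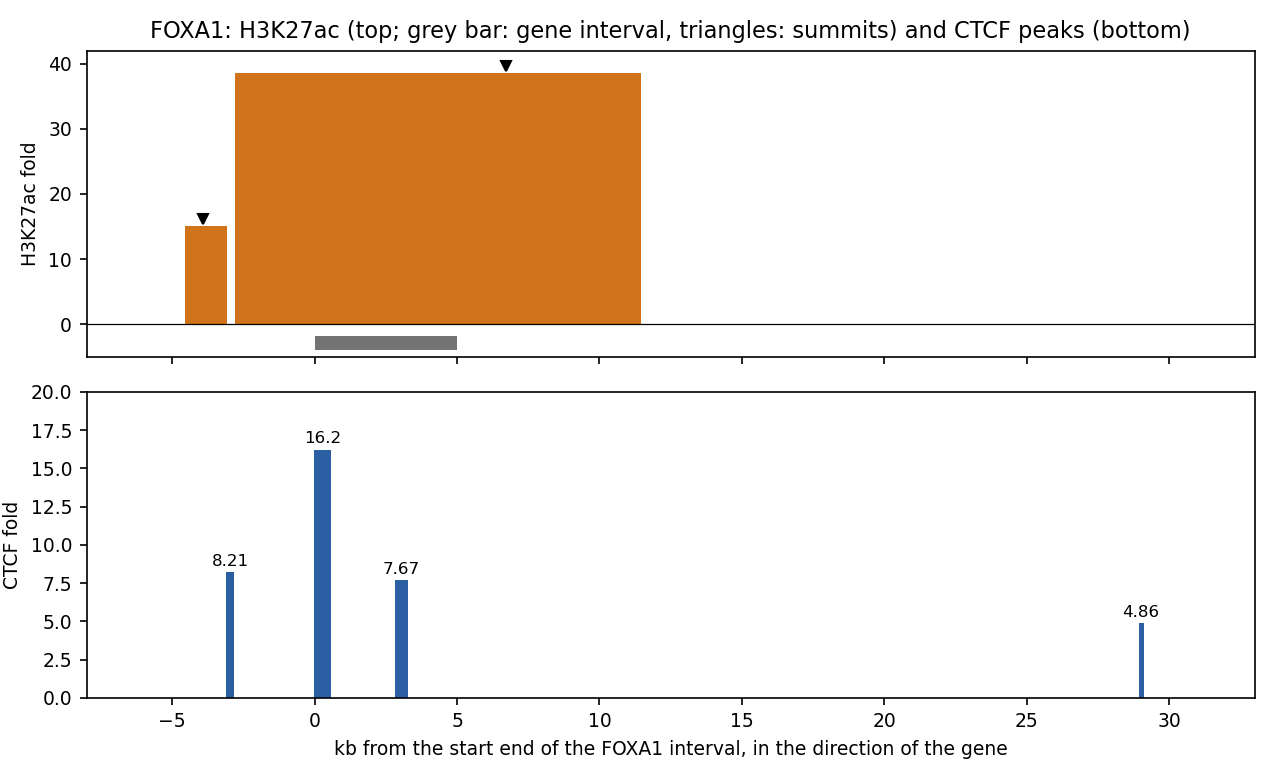
FOXA1 with distance in kb from the start along the x axis. The upper panel gives H3K27ac peaks as blocks whose height is the fold at the summit (black triangles), since the lists hold no profile within a peak; the lower panel gives CTCF peaks with their folds. The strongest CTCF peak, at 16.2-fold, lies at the start, whereas the H3K27ac summit lies past the far end of the gene.

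GATA2, a zinc finger factor that acts with the androgen receptor in luminal prostate cells (chromosome 3, 128198000 to 128212000, minus strand), had 1 substantial H3K27ac peak. It lay inside the gene at 128206959 to 128209053, with a fold of 14.3 from 80 fragments (63.4 to 99.6) and a width of 2095 bases. Its summit was 3.74 kb downstream of the start end of the interval. RefSeq lists a further GATA2 start 4.67 kb downstream of the first. The other H3K27ac peaks, at 128206270 to 128206624 and 128216112 to 128216460, each rested on 14 fragments (7.65 to 23.5) with a fold of 3.59. As much acetylation as in the GATA2 window, 2.80 kb, was held by 16.4% of tiles. The strongest CTCF peak by fold in all 9 windows lay upstream of GATA2, at 128216656 to 128217043 with a fold of 22.1 from 76 fragments (59.9 to 95.1). It was 195 bases from the weak upstream H3K27ac peak without sharing a base. The other CTCF peak of the window lay 54.4 kb downstream of the start end, with a fold of 12.6 from 43 fragments.

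GATA3, the related factor of luminal epithelia (chromosome 10, 8097000 to 8117000, plus strand), had no H3K27ac peak in its window, like 59.0% of tiles of that length. The nearest peaks were 98.4 kb upstream and 2510 kb downstream, which left a stretch of 2630 kb without H3K27ac. Of all gaps between neighbouring H3K27ac peaks, 0.265% by number were as long. Such a share counts gaps and not bases, so it understates how much of the chromosomes lies in gaps as long. CELF2, the next gene downstream of GATA3 in RefSeq, is 2390 kb away. The stretch held 11 CTCF summits. One of these was strong and close to the gene, at 8095258 to 8095536, 1.61 kb upstream of the start end of the interval. Its fold of 19.7 came from 87 fragments (69.7 to 107) and was matched or exceeded by 10.4% of the CTCF list. FOXA1 and GATA3 thus each had a CTCF peak near the start end with a fold above the list median, but FOXA1 lay under acetylation and GATA3 lacked an H3K27ac peak.

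Among the epithelial factors GRHL2, KLF5, ELF3 and EHF, acetylation ranged from 0 kb at GRHL2 to 6.21 kb at ELF3. GRHL2, a grainyhead factor that keeps epithelial junction genes active (chromosome 8, 102505000 to 102682000, plus strand), had no H3K27ac peak in its window, like 44.4% of tiles of that length. The nearest acetylation was 116 kb upstream and 568 kb downstream. The stretch without it measured 861 kb, and 1.15% of gaps by number, a far smaller share than by bases, were as long. All 4 CTCF peaks of the window lay inside the gene. Those in its later part were the stronger: 140 kb from the start one had a fold of 14.4 from 94 fragments (76.0 to 115), the highest fragment number of the 21 CTCF peaks, and 154 kb from the start another had a fold of 13.1 from 53 fragments. The early ones, 8.83 and 29.1 kb from the start, had folds of 5.30 and 5.26 from 28 and 22 fragments.

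KLF5, a Krüppel-like zinc finger factor of epithelial progenitors (chromosome 13, 73629000 to 73652000, plus strand), had the second strongest H3K27ac peak of the windows. It lay at 73633141 to 73635105, 1965 bases wide, with a fold of 26.3 from 109 fragments (89.5 to 131), and 3.71% of the list had a fold as high. Its summit was 4.48 kb downstream of the start end of the interval. The 2 KLF5 starts in RefSeq are 4.03 kb apart, and the CpG-rich sequence printed above belongs to the downstream one.  A CTCF peak inside the strong H3K27ac peak had a fold of 5.75 from 19 fragments (11.4 to 29.7), the lowest fragment number of the CTCF members. The other H3K27ac peaks were 1 downstream of the gene at 73663796 to 73665327, with a fold of 12.9 from 62 fragments, and 2 weak peaks in the gene with folds of 3.00 and 3.67. The window held 4.44 kb of acetylation, which 11.6% of tiles reached.

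ELF3 and EHF code for related ETS factors of epithelia but were acetylated in different places. ELF3 (chromosome 1, 201980000 to 201986000, plus strand) had 8 H3K27ac peaks, the most of any window. They covered 6.21 kb, which 6.65% of tiles reached, and FOXA1 had 2.53 times as many acetylated bases. The peak at the start, at 201979754 to 201980419, had its summit 62 bases downstream of the start end of the interval. Its fold of 10.4 came from 63 fragments (48.4 to 80.6). On its upstream side a peak at 201978922 to 201979597 had a fold of 7.60 from 56 fragments. The highest fold of the window, 13.9 from 57 fragments, lay 28.0 kb upstream at 201951666 to 201952968, and a peak with a fold of 11.5 lay 23.8 kb downstream. RNPEP is the neighbouring gene on the upstream side in RefSeq, so the 2 peaks farthest upstream cannot be assigned to ELF3. Without these the window held 4.49 kb.

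All 4 CTCF peaks of the ELF3 window lay upstream of the gene. The closest, at 201978693 to 201978987, had its summit 1.16 kb upstream and shared 66 bases with the H3K27ac peak beside it. Its fold of 12.0 came from 91 fragments (73.3 to 112) over a local background of 6. All 4 CTCF peaks here had that background, as did the SOX9 peak, within a range of 2.18 to 7.0 among the CTCF members. The GATA3 CTCF peak reached a higher fold, 19.7, from a similar number of fragments, 87, over a background of 3.08. A fold thus ranks peaks in another order than their fragments do, and the part of the background in the ELF3 folds was not tested.

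EHF (chromosome 11, 34643000 to 34685000, plus strand) had 6 H3K27ac peaks over 5.02 kb, which 11.8% of tiles reached, but none near its start. A group of 3 peaks lay late in the gene, between 34674532 and 34677500, with summits 32.3 to 34.0 kb from the start. Their folds were 7.18, 5.68 and 5.03. The strongest peak of the window lay 21.4 kb upstream, at 34621370 to 34623120, with a fold of 10.3 from 42 fragments (30.3 to 56.8). The only CTCF peak, 35.0 kb upstream, had a fold of 5.30 from 28 fragments. ELF3 thus had acetylated peaks at its start besides distant ones, whereas at EHF the closest summit was 21.4 kb from the start end. The lengths depend on the widening: with 20 kb on each side the windows held 4.49 kb at ELF3 and 3.07 kb at EHF.

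**Figure D4:**
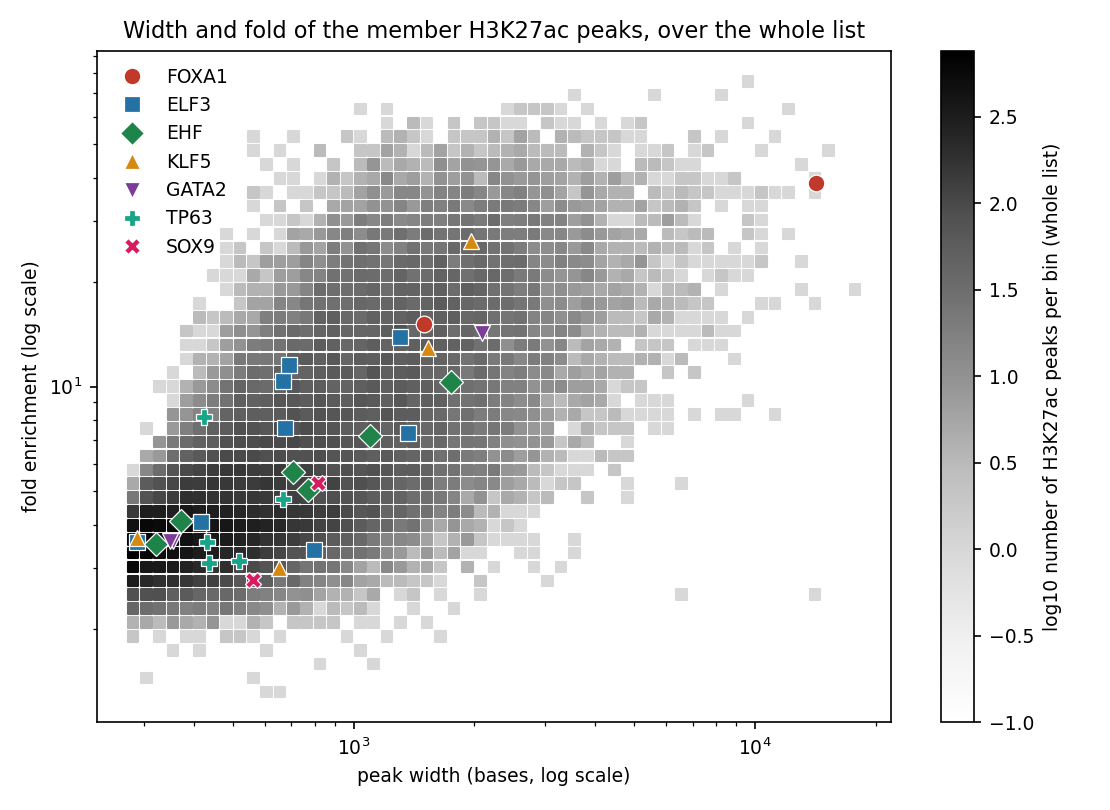
Width in bases (x, log scale) and fold enrichment (y, log scale) of the 30 H3K27ac peaks, coloured by gene, over the number of peaks per bin in the whole list (grey). The broad FOXA1 peak lies at the far right edge of the list at 14227 bases, while the TP63 and SOX9 peaks all have folds of at most 8.18.

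SOX9, an HMG-box factor of prostate progenitors and of bud outgrowth (chromosome 17, 70117000 to 70123000, plus strand), had 2 H3K27ac peaks. The peak at its start, at 70117325 to 70118140, had a fold of 5.27 from 21 fragments (13.0 to 32.1), above the list median of 4.55. A further one 31.0 kb downstream was below it, with 2.77 from 19 fragments. Neither reached a −log10 q of 10, which 43.4% of the list did. Of tiles, 25.1% held as much as the 1.38 kb of this window, of which 0.816 kb lay within 20 kb of the interval. The CTCF peak 2.06 kb upstream had a fold of 8.48 from 64 fragments (49.3 to 81.7), below the CTCF list median of 9.52. It did not touch the acetylated peak, which was 2274 bases away.

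TP63, the p53 family member of basal cells (chromosome 3, 189349000 to 189615000, plus strand), had no H3K27ac peak in its 266 kb. Of tiles of the longer window length, 366 kb, 40.0% held none. The stretch without acetylation around TP63 measured 884 kb, and 1.13% of gaps by number, a far smaller share than by bases, were as long. It held 13 CTCF summits, among them 3 inside the gene, at 21.0, 113 and 156 kb from the start with folds of 9.74, 5.72 and 5.56. The 5 H3K27ac peaks of the window all followed the gene. Of these, 4 lay close together between 189654213 and 189657375. The strongest had a fold of 8.18 from 42 fragments (30.3 to 56.8), and the other 3 had folds of 3.10 to 4.74. P3H2 is the next gene on that side in RefSeq. The window held 2.48 kb of acetylation, which 40.7% of tiles reached, and 0.432 kb with the interval widened by 20 kb.

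A CTCF summit was within 5 kb of the start end in 6 of 9 genes (FOXA1, GATA2, GATA3, KLF5, ELF3 and SOX9), and an H3K27ac summit in 5 of 9, the same genes without GATA3. No background share for all starts was computed, since start positions in hg19 were not used here. Of the 21 CTCF peaks, 5 (23.8%) overlapped H3K27ac, against 14.2% of the list, and 3 had their summit inside an H3K27ac peak, against 8.40%. Of the 30 H3K27ac peaks, 4 (13.3%) overlapped CTCF, against 10.1%. Of the 5 overlapping CTCF peaks, 3 lay at FOXA1. Peaks of a window are not independent, so these shares have no error estimate and their difference from the list was not tested. All overlaps belonged to 3 genes, FOXA1, KLF5 and ELF3.

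The CTCF summits that enclosed each gene lay at very different distances. The nearest summits on either side of the interval were 32.0 kb apart at FOXA1, 59.3 kb at GATA2 and 109 kb at ELF3. They were 216 kb apart at GATA3, 255 kb at EHF and 270 kb at SOX9. GRHL2, KLF5 and TP63 had the widest spans, of 423, 446 and 608 kb. The spans are not free of CTCF, since summits inside the intervals were left out. GRHL2, KLF5 and TP63 held 4, 1 and 3 of those, and FOXA1 held 2. No background for such spans was computed. GRHL2 and TP63 are the longest of the 9 genes, at 177 and 266 kb, but KLF5 measures 23.0 kb, with its closest outer summits 215 kb upstream and 209 kb downstream.

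**Figure D5:**
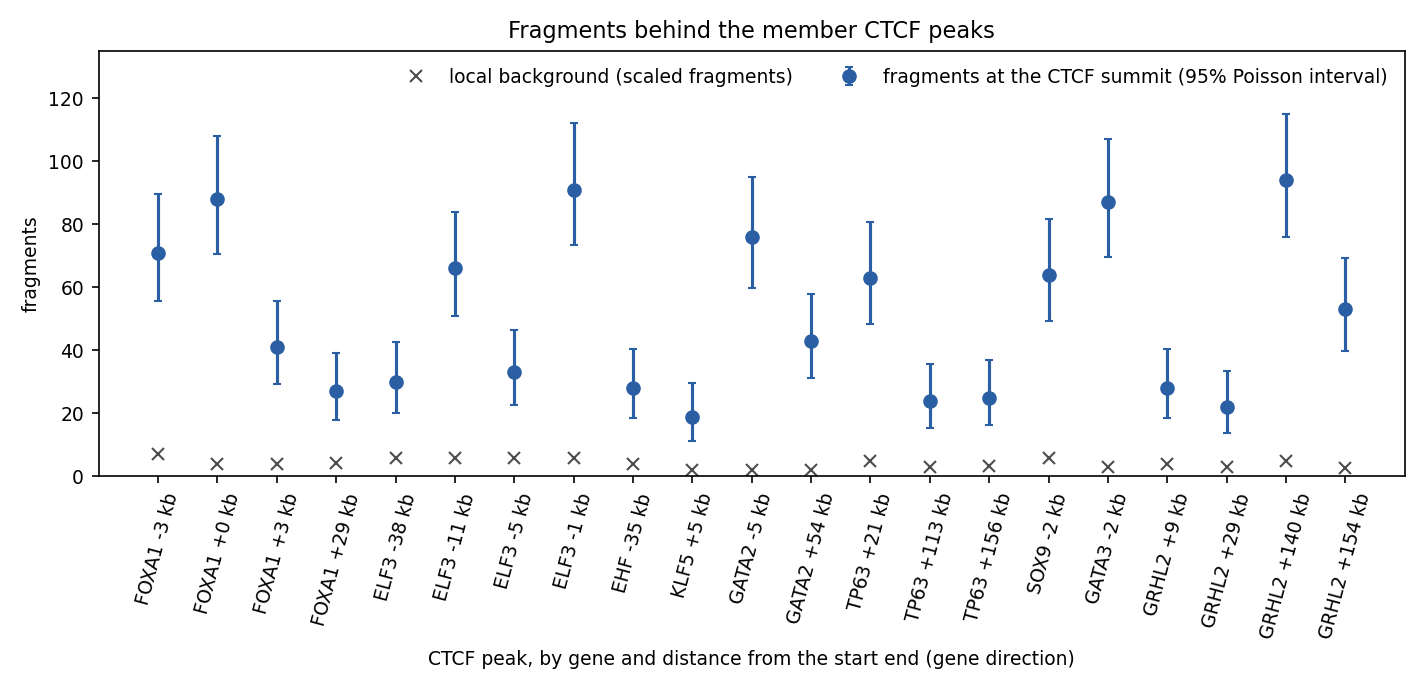
Fragments at the summit of each of the 21 CTCF peaks (blue, with exact Poisson 95% intervals) and local background (grey crosses, on the scale of the fold), by gene and distance from the start. Numbers run from 19 at KLF5 to 94 at GRHL2, and intervals of many peaks overlap.

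The counting intervals describe the fragment number of single peaks, and whether they overlap is no test of a difference between peaks. Among CTCF peaks the 4 with most fragments, at GRHL2 (94), ELF3 (91), FOXA1 (88) and GATA3 (87), had intervals that overlap one another. Among H3K27ac peaks the FOXA1 interval of 182 to 239 lay above that of KLF5, 89.5 to 131. The KLF5 interval in turn overlapped that of GATA2, 63.4 to 99.6. The weakest H3K27ac members rested on 14 fragments.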

How the data were processed

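Chromatin of DU145 cells was precipitated with an antibody to CTCF or to H3K27ac, per the labels' protocols. The submitters' processing notes name Bowtie, MACS2 and hg19; their versions and settings, and the input that served as background, were not given in the sources used here. For each peak the authors deposited a fold enrichment (a linear ratio), −log10 p and −log10 q, and a whole-number score, not used, that repeats the −log10 q. Neither list held a −log10 q under 1.31.

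Peaks were assigned to windows by 1 shared base (Python 3.11.15), and positions count from 1. Gene strands follow RefSeq, and common knowledge for GRHL2 and SOX9. Fragment numbers were solved from fold and −log10 p. The fold was taken as scaled fragments plus 1 over background plus 1, with a scale of 1 for H3K27ac and 0.911 for CTCF. All 30 and 21 member peaks were solved within 0.002 on −log10 p. Overlap, tiling and solving were tested on simulated data. Tiles ran from the first to the last peak of each assembled chromosome. H3K27ac peaks were joined into domains over gaps of up to 12500 bases. In each window the strongest and widest peaks and those nearest the start are named. Members and lists were chosen with earlier results of these data known. Alternatives were a stricter −log10 q, other widenings, overlap rules and a shorter joining distance. Other lineage genes and cell type markers were not analysed here, since hg19 gene positions were not used, so the DU145 label was not checked against markers.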

Additional observations from a re-analysis of the deposited data

How the results depend on the processing

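No test was made, so the alternatives move values only. With a −log10 q of 10 or more, 14 H3K27ac and 12 CTCF peaks were left in the windows by construction. H3K27ac then covered 2.06% of window bases. The median length of the longest domain touching a gene fell from 11.6 kb over 6 genes to 2.10 kb over 5, since SOX9 had no domain left. SOX9 then had 0 kb and TP63 0.423 kb of acetylation, while FOXA1 kept 15.7 kb. Joining over 5 kb instead gave a median of 3.09 kb. Widening by 20 kb gave 3.46% of window bases, and by 100 kb 1.73% and 32 CTCF peaks; GATA3 then had 0.404 kb of acetylation and GRHL2 still 0 kb. No H3K27ac summit lay inside a CTCF peak (0%). The share over the whole H3K27ac list is not given here, and CTCF peaks cover only 0.363% of the assembled chromosomes between their first and last peaks. Of 64 alternatives, 43 counted as unchanged, within limits that are not given here, among them 26 of 38 for single genes. Besides the values above, the rest were acetylation with 20 kb at EHF (3.07 kb), SOX9 (0.816 kb) and TP63 (0.432 kb), against 5.02, 1.38 and 2.48 kb, and the longest domains of GATA2, KLF5 and ELF3. These domains measured 10.2, 13.0 and 25.1 kb, fell to 2.10, 1.97 and 9.08 kb with the stricter −log10 q, and to 2.78, 3.20 and 9.08 kb with joining over 5 kb. Counting as unchanged does not mean an equal value. Among such alternatives, CTCF peaks overlapping H3K27ac made up 33.3% with the stricter −log10 q and 15.6% with 100 kb, against 23.8%. For H3K27ac peaks overlapping CTCF these shares were 21.4% and 11.8%, against 13.3%. Over the whole lists the shares were 14.2% for CTCF peaks and 10.1% for H3K27ac peaks, near the values with 100 kb. List shares with the stricter −log10 q were not computed, so the values at that setting have no background. No paired analysis was possible because there is 1 library per mark. Depth limits the weakest peaks, which rest on 14 fragments, and cannot tell absence of acetylation from a level below the caller's threshold.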
